A study of Mus musculus with 6 samples.

Results

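The abundance of 45 genes of the actomyosin machinery and of smooth muscle contraction was followed in the mouse line m1102, which derives from ovarian surface epithelium, with and without exposure to the cytokine TGFB1. The genes were chosen by name, with earlier results of these data known. They are actins, actin-binding proteins, myosins, their kinases, the transcription factor Srf and the surface marker Mcam. They make up 45 of the 35688 gene rows of the deposited table. Poly(A) RNA was sequenced from 6 libraries. Of these, 3 were from untreated cells and 3 from cells given 10 ng/mL TGFB1 for 4 days. The labels give no time for the untreated cells, so whether they were grown equally long is not known. Both groups were grown in alpha-MEM with serum, the supplement ITSS (insulin, transferrin and sodium selenite) and EGF, so EGF was also present in the controls. The labels give no genetic change in the line, and they do not say whether the libraries of a group came from separate cultures. The p-values therefore set each difference only against the scatter among these samples, and that scatter may be technical. The series title concerns COX2 and how the ovary surface closes its wound after ovulation.

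Actin filaments and bundles of non-muscle myosin II form the stress fibres and the cortex that give a cell tension. Calponin, transgelin, caldesmon and the tropomyosins bind along the filament, cofilin, profilin and the thymosins set its turnover, and kinases such as the myosin light chain kinase switch the motor on. In smooth muscle the same parts occur as tissue-specific isoforms, many of them driven by SRF and its cofactors, and in many cell types TGFB1 is known to raise several of these isoforms. The surface epithelium of the ovary is a mesothelium-like layer that opens at ovulation and closes again.

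Values are on the TPM scale (transcripts scaled to library total and corrected for length) as deposited, with column totals of 983434 to 1026702. The read depth behind them is unknown, so no counting interval is given. Values of a group are listed in the order of replicates 1, 2 and 3, and SE is the standard error of a log2 fold change. Limma was run on log2(TPM + 1) over the 12257 genes whose mean reached 1 TPM, and "called" means an adjusted p under 0.05 across all of them. TGFB1 replicate 1 stood further from the controls than replicates 2 and 3. On the first principal component of all tested genes TGFB1 replicates 1, 2 and 3 scored 46.6, 20.2 and 18.1. The controls scored -28.0, -29.8 and -27.1.

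After TGFB1 the actomyosin genes were higher more often than lower. Of the 42 that passed the abundance filter, 18 rose and 2 fell (Cnn3 and Smtn), and 22 were not called. That is 42.9% higher, where 15.8% of all tested genes were called higher, and 4.76% lower, where 14.6% of all tested genes were. In either direction 47.6% of the genes were called, against 30.4% of all tested genes. In all tested genes 52.0% of the calls were upward, a share that was 62.8% after rescaling to a total that leaves out mitochondrial genes and the 20 highest genes. In 29 of the 42 (69.0%) treated and untreated values were fully separate, against 49.8% of all tested genes. The median log2 fold change was 0.24 for these genes and 0.015 for all tested genes. These contrasts are no independent test, since the genes were chosen with earlier results of these data known. The genes are also more abundant than most (median 268 TPM against 23.0 TPM), and no share was computed for equally abundant genes. Most changes were under 2-fold, and only Mcam and Cnn1 exceeded it. The remaining 3, Lmod1, Myl9 and Myh11, were under the filter. Without TGFB1 replicate 1 the same 20 genes were called, and Tpm4 was then called higher and Mylk and Ezr lower, which gives 19 and 4. Because the RNA came from bulk cultures, fewer cells of a type and less RNA per cell cannot be told apart.

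**Figure D1:**
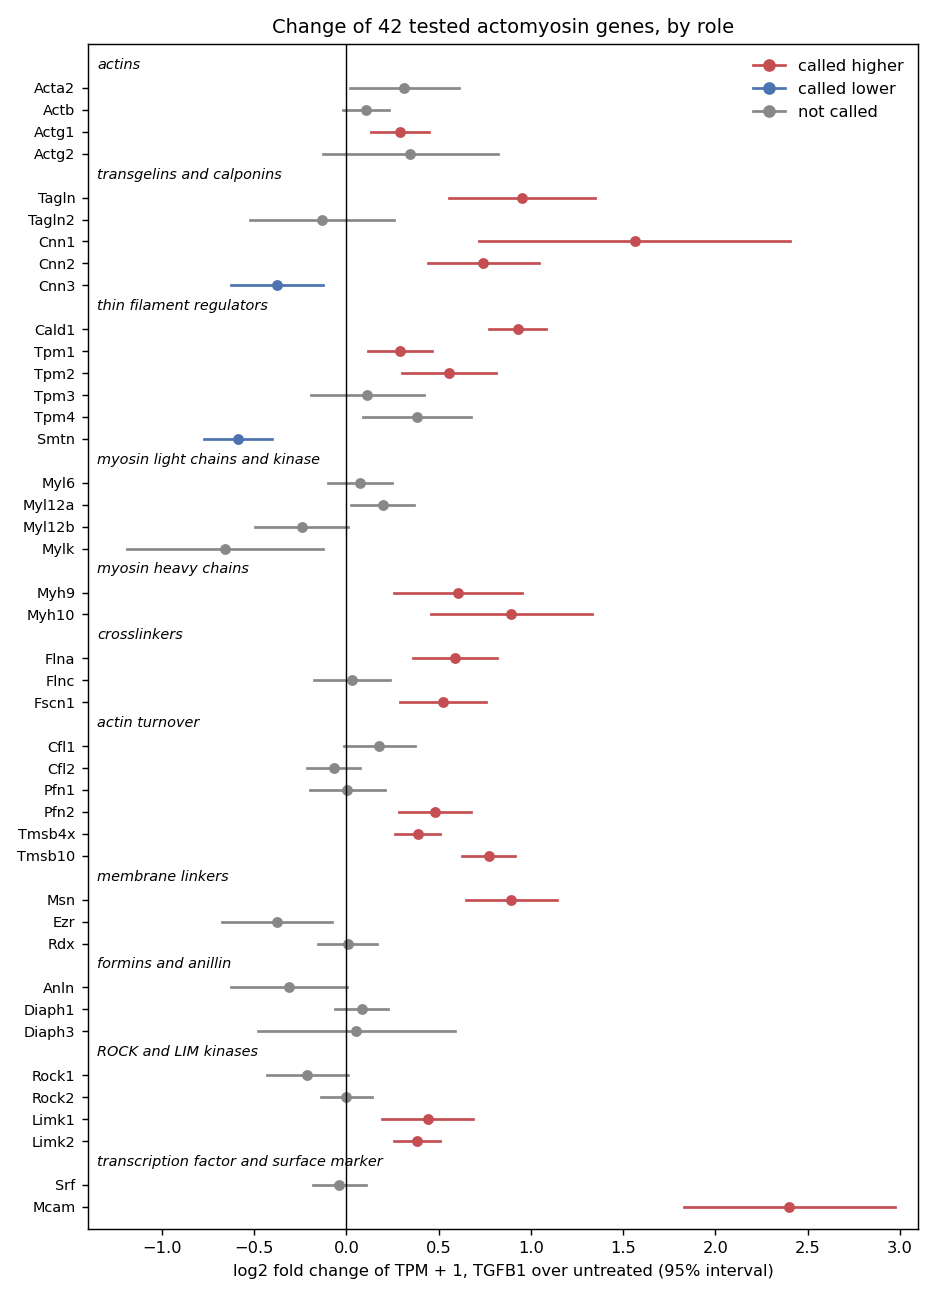
Log2 fold change of TPM + 1 (x axis, TGFB1 over untreated) of the 42 tested actomyosin genes, grouped by role (y axis); points are estimates from limma, bars their 95% intervals, red called higher, blue called lower, grey not called. Mcam stands furthest right at 2.40, Cnn1 has the next estimate at 1.56, and Smtn and Cnn3 are the 2 blue points.

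These genes were abundant in both groups. Their median abundance was 268 TPM, against 23.0 TPM for all tested genes, and 13 of the 42 were above 1000 TPM in the untreated mean. Actg1 and Actb were among the 20 most abundant genes of the table. The 45 genes together held 3.00, 2.93 and 3.11% of the deposited total in the untreated libraries and 4.12, 3.77 and 3.69% in the treated ones. The treated shares were all above the untreated ones, and the summed TPM was 1.24 times as high.

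Many smooth muscle promoters carry a CArG box, the short sequence bound by SRF, in which a run of A and T letters stands between a pair of C and a pair of G letters. The RefSeq promoter windows (GRCm38.p6) reach from 250 bases before to 50 after each annotated start, and 39 of the 45 genes matched one. Tagln, Myh11, Actb, Diaph1, Actg2 and Rock1 did not match. An exact box on either strand lay in the windows of 5 of the 39 genes (12.8%), Actg1, Cnn2, Myl6, Myl9 and Srf, and in 1.81% of the 27025 genes with a window. With 1 mismatch allowed the shares were 41.0% and 23.8%, and Acta2 was then among the 16 members with a match. The motif TATAAA lay in 10.3% of the members and 15.7% of all genes, and CATTCC, the core of the MCAT element bound by TEAD factors, in 30.8% and 16.6%. A match is a description of letters and not a measured binding site. The 5 exact matches are shown because they are the members' closest matches to the box. Acta2 was picked by name from the members with 1 mismatch, and the others of that kind are not shown. The outcome of each gene stands beside its name. The sequences read 5′ to 3′ on the strand of the gene, and capitals mark the boxes.
Myl9, chr2:156775278-156775337, plus strand, under the abundance filter: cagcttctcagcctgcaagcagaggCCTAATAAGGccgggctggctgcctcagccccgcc
Cnn2, chr10:79988519-79988578, plus strand, called higher: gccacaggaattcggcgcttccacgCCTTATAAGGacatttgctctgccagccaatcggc
Myl6, chr10:128493025-128493084, minus strand, not called: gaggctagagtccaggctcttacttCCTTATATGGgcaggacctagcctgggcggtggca
Actg1, chr11:120348551-120348610, minus strand, called higher: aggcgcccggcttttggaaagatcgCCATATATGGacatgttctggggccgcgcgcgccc
Srf, chr17:46556190-46556269, minus strand, not called: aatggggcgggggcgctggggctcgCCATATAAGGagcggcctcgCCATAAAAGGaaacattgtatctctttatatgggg
Acta2, chr19:34255374-34255482, minus strand, not called, 1 mismatch in each box: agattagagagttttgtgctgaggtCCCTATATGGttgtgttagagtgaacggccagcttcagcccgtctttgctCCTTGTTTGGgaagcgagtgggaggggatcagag
Of the 5 genes with an exact box 2 were called higher, 2 were not called and 1 was under the filter. The first bases of the boxes lie 161 (Myl9), 56 (Cnn2), 50 (Myl6) and 90 (Actg1) bases before the start, and 82 and 62 bases before it in Srf.

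The actins are the filament itself. Actg1, cytoplasmic gamma actin, on chr11:120345690-120348542 (ENSMUSG00000062825, GRCm38 as annotated in GENCODE M21, as for all gene positions here), was the most abundant member, at 3995, 4021 and 4463 TPM without TGFB1 and 5371, 5007 and 4876 TPM with it. Every treated value lay above every untreated one, and the gene rose (log2 fold change 0.29, SE 0.066, adjusted p = 0.0185). The call was lost without control replicate 1 (adjusted p = 0.0688), control replicate 2 (0.0589) or TGFB1 replicate 2 (0.0536) and with no filter (0.163). Actb, cytoplasmic beta actin, was next in abundance, at 3742, 3613 and 3575 TPM without TGFB1 and 4066, 3934 and 3769 TPM with it. Its groups did not overlap, by a small margin, and it was not called (log2 fold change 0.11, 95% interval -0.02 to 0.23, adjusted p = 0.162), except after rescaling (0.16, adjusted p = 0.0492).

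Acta2, the smooth muscle alpha actin used as the marker of myofibroblasts, lies on chr19:34241090-34255590. It was already abundant without TGFB1, at 1358, 1405 and 1745 TPM, and stood at 2120.2, 1819 and 1662 TPM in the treated libraries. Untreated replicate 3 exceeded treated replicate 3, so the groups overlapped, and Acta2 was not called (log2 fold change 0.31, 95% interval 0.02 to 0.61, adjusted p = 0.0998). Under quantile normalization it was called (0.45, adjusted p = 0.0302). Actg2, the enteric smooth muscle gamma actin, was near 1 TPM in both groups (0.856 and 1.38 TPM) and not called. Acta2 made up 14.9, 15.5 and 17.8% of the summed actin TPM in the untreated libraries and 18.3, 16.9 and 16.1% in the treated ones, which overlap. In both groups the 2 cytoplasmic actins held most of the actin RNA. Because 40.2% of the 31-mers (stretches of 31 bases) of Actg1 and 23.6% of those of Actb occur in other genes, their values are uncertain.

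Transgelins and calponins bind along the actin filament, and of these Tagln and Cnn1 are an early and a late marker of smooth muscle. Tagln, transgelin or SM22-alpha, is on chr9:45929619-45936058 (ENSMUSG00000032085) and was at 1116, 1198 and 1479.9 TPM without TGFB1 and 3083, 2211 and 2107 TPM with it. The lowest treated value was 1.42 times the highest untreated one, and Tagln rose (log2 fold change 0.95, SE 0.17, adjusted p = 0.00733). An antisense gene, Gm48529, holds 58.2% of its 31-mers, and whether strand was used in the counting is not stated, so reads of the pair cannot be told apart and the level is uncertain. Tagln2, the paralog found outside muscle, was at 567 ± 72.3 and 522 ± 116 TPM (mean ± SD, n = 3) and was not called (log2 fold change -0.13, 95% interval -0.52 to 0.26, adjusted p = 0.579). The Tagln share of the pair was 65.1, 71.2 and 70.6% without TGFB1 and 82.5, 82.8 and 82.3% with it, and these do not overlap.

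Cnn1, the calponin of differentiated smooth muscle, had the second largest fold among the members from a very low base. Its values were 0.988, 0.700 and 2.08 TPM without TGFB1 and 9.66, 4.15 and 3.89 TPM with it, all treated values being above the untreated ones (log2 fold change 1.56, SE 0.35, adjusted p = 0.0182). The estimate depends on the pseudocount, at 0.77 with 5 and 2.15 with 0.1, and the call was lost without control replicate 1 (adjusted p = 0.0641), without control replicate 2 (0.0632) and with no filter (0.0548). Cnn2, the calponin of non-muscle cells, rose from 161, 150.0 and 179 to 330.3, 254 and 244 TPM (log2 fold change 0.74, SE 0.13, adjusted p = 0.0068). Cnn3, acidic calponin, was the main calponin of this line and was lower with TGFB1, at 1346, 1405 and 1430.2 TPM without it and 905, 1170.3 and 1164 TPM with it. Its groups did not overlap (log2 fold change -0.38, SE 0.10, adjusted p = 0.0348), but the call was lost when any 1 control was left out (adjusted p = 0.0783 to 0.108), under quantile normalization (-0.25, 0.110) and after rescaling, with no filter and without the trend. Other genes hold 32.0% of the 31-mers of Cnn3, so its level is uncertain. Cnn3 held 89.2, 90.3 and 88.8% of the calponin TPM without TGFB1 and 72.7, 81.9 and 82.5% with it, and Cnn2 took most of the rest. Even at its treated level Cnn1 was under 1% of the calponin total.

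**Figure D2:**
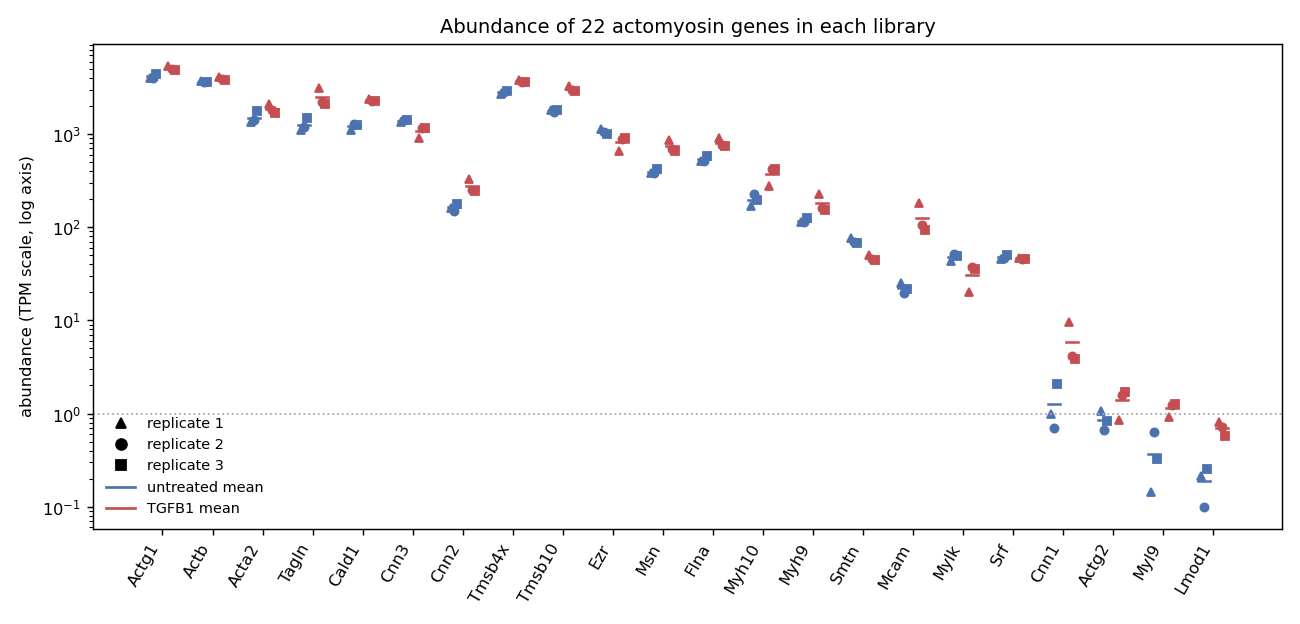
Abundance (y axis, TPM scale, log axis) of 22 actomyosin genes (x axis) in each library; blue untreated, red TGFB1, triangles replicate 1, circles replicate 2, squares replicate 3, bars group means, the dotted line 1 TPM. Tagln, Cald1, Tmsb10, Msn and Mcam show separate groups, the Acta2 groups overlap, and the smooth muscle genes Cnn1, Actg2, Myl9 and Lmod1 lie near or under 10 TPM.

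Caldesmon and the tropomyosins regulate how myosin meets the thin filament. Cald1, caldesmon, on chr6:34598500-34775473 (ENSMUSG00000029761), gave the smallest adjusted p of all members. It was at 1107, 1273 and 1241 TPM without TGFB1 and 2351, 2274 and 2265 TPM with it, with treated libraries that agreed closely (log2 fold change 0.93, SE 0.065, adjusted p = 0.000353). Tpm2, beta tropomyosin, rose from 57.4, 47.5 and 57.0 to 89.4, 78.1 and 72.2 TPM (log2 fold change 0.56, SE 0.11, adjusted p = 0.0104). Tpm1, alpha tropomyosin and the most abundant of the 4, was at 955, 805 and 885 TPM without TGFB1 and 1115, 1070.1 and 1041 TPM with it. The groups were close to each other but separate (log2 fold change 0.29, SE 0.073, adjusted p = 0.0257), and the call was lost without TGFB1 replicate 2 or 3, without control replicate 2 or 3 (adjusted p = 0.0508 to 0.0792) and with no filter. Tpm4 and Tpm3 are mainly tropomyosins of non-muscle cells. Tpm4 stood at 651, 594 and 706 TPM without TGFB1 and 1018, 792 and 754 TPM with it. Its groups were separate, and it just missed the threshold (log2 fold change 0.38, 95% interval 0.09 to 0.68, adjusted p = 0.0556). It was called without TGFB1 replicate 1 (0.25, adjusted p = 0.0435) or 3 (0.47, adjusted p = 0.0473), after rescaling and under quantile normalization. Tpm3 was not called (log2 fold change 0.11, 95% interval -0.19 to 0.42, adjusted p = 0.536). The shared 31-mers of Tpm4 (20%) and Tpm3 (27.0%) make both uncertain.

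Smtn, smoothelin, a marker of contractile smooth muscle, went the other way from Tagln and Cald1. It was at 76.7, 69.0 and 68.1 TPM without TGFB1 and 50.8, 45.9 and 44.7 TPM with it, with every treated value under every untreated one (log2 fold change -0.59, SE 0.078, adjusted p = 0.00284). The call was kept in all 17 alternatives run. Lmod1, leiomodin, which nucleates actin filaments in smooth muscle, was under the filter in both groups, at 0.216, 0.0999 and 0.253 TPM and 0.809, 0.716 and 0.580 TPM. No test was made for it.

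Both non-muscle myosin II heavy chains among the members rose. Myh10, the chain of myosin IIB, on chr11:68691559-68816632, was at 169.8, 225 and 196 TPM without TGFB1 and 275, 417 and 422 TPM with it, and it was the more abundant of the pair (log2 fold change 0.89, SE 0.18, adjusted p = 0.013). Its lowest treated value was TGFB1 replicate 1, and the call was lost without control replicate 1 (0.79, adjusted p = 0.0508). Myh9, the chain of myosin IIA, was at 112, 113 and 126 TPM without TGFB1 and 226, 162 and 154 TPM with it, with TGFB1 replicate 1 the highest (log2 fold change 0.60, SE 0.15, adjusted p = 0.0227). Its call was lost when any 1 control was left out (adjusted p = 0.0536 to 0.0753) and with no filter. So the balance between the 2 chains differed among the treated libraries. Myh10 was 54.8, 72.04 and 73.2% of the heavy chain TPM there and 60.2, 66.6 and 60.9% in the untreated ones, which overlap. Myh11, the heavy chain of smooth muscle myosin, was listed at 0, 0 and 0.0093 TPM without TGFB1 and at 0, 0.020 and 0.016 TPM with it. Myh14, a further non-muscle chain outside the members, was under the filter (means of 0.0578 and 0.135 TPM).

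Among the myosin light chains and their kinase 0 of 4 tested genes were called by limma, and 2 had an unadjusted p under 0.05. Myl6, the essential light chain shared by smooth and non-muscle myosin, was at 2261 ± 153 and 2382 ± 155 TPM (log2 fold change 0.08, 95% interval -0.10 to 0.25, adjusted p = 0.467). Myl12a, a regulatory light chain of non-muscle myosin, was at 1163, 1151 and 1291 TPM without TGFB1 and 1486, 1323 and 1322 TPM with it, with groups that did not overlap (log2 fold change 0.20, 95% interval 0.02 to 0.37, adjusted p = 0.0844). Myl12b, its neighbour and near copy, was at 180.1 ± 5.37 and 153 ± 21.6 TPM (log2 fold change -0.24, 95% interval -0.49 to 0.01, adjusted p = 0.127). Other genes hold 22.9% of the 31-mers of Myl12a and 26.0% of those of Myl12b. A second annotated Myl12b gene, which has no row in the deposited table, holds 17.4% and 26% of them. The pair itself shares 9.05% and 11.2%, so the split between them is uncertain. Under quantile normalization Myl6 and Myl12a were called higher (lowest adjusted p = 0.0356 and 0.00417), and Myl12a was also called after rescaling.

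Myl9, the regulatory light chain of smooth muscle, was under the filter, at 0.145, 0.632 and 0.328 TPM without TGFB1 and 0.908, 1.24 and 1.26 TPM with it. All treated values were above the untreated ones at a level near 1 TPM, and Myl12a held 86.7, 86.7 and 87.4% and 92.0, 88.6 and 89.0% of the summed regulatory light chain TPM in the 2 groups. Mylk encodes the kinase that phosphorylates these light chains. Its values were 43.3, 52.1 and 48.5 TPM without TGFB1 and 20.2, 37.5 and 35.4 TPM with it, lowest in TGFB1 replicate 1. The groups were separate and the gene was not called (log2 fold change -0.66, 95% interval -1.19 to -0.13, adjusted p = 0.0652), but without TGFB1 replicate 1 it was called lower (-0.38, adjusted p = 0.0167).

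The crosslinkers bundle filaments or join them into networks. Flna, filamin A, on chrX:74223461-74249820 (ENSMUSG00000031328), rose from 507, 517 and 582 to 917, 759.8 and 749.8 TPM (log2 fold change 0.59, SE 0.096, adjusted p = 0.00567). Fscn1, fascin, which bundles the filaments of filopodia, rose from 369, 322 and 365 to 572, 493 and 458 TPM (log2 fold change 0.52, SE 0.097, adjusted p = 0.00904). Both had separate groups, and both calls were kept in the 17 alternatives. Flnc, the filamin of striated muscle, was at 40.5 ± 4.04 and 41.2 ± 2.15 TPM and not called (log2 fold change 0.03, 95% interval -0.18 to 0.23, adjusted p = 0.83). Flna was already 91.8, 93.1 and 93.9% of the summed TPM of the 2 filamins without TGFB1, and 95.5, 94.7 and 95.1% with it.

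Among the turnover proteins the thymosins, which hold actin monomers in reserve, rose. Tmsb10, thymosin beta 10, was at 1802, 1725 and 1833 TPM without TGFB1 and 3253, 3004 and 2902 TPM with it (log2 fold change 0.77, SE 0.060, adjusted p = 0.000494). Tmsb4x, thymosin beta 4, was at 2706, 2843 and 2932 TPM without TGFB1 and 3779.9, 3644 and 3659 TPM with it (log2 fold change 0.39, SE 0.051, adjusted p = 0.00287). In both genes the 3 libraries of a group lay close together and the groups were far apart. Tmsb10 was 40.0, 37.8 and 38.5% of the pair's summed TPM without TGFB1 and 46.3, 45.2 and 44.2% with it. Since 32.0% of the 31-mers of Tmsb10 occur in other genes, its level is uncertain.

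Profilin exchanges the nucleotide on actin monomers and feeds them to filament ends. Pfn2, the profilin best known from neurons, rose from 9.58, 9.32 and 10.4 to 13.0, 14.5 and 14.5 TPM (log2 fold change 0.48, SE 0.082, adjusted p = 0.00673). Pfn1, the general profilin, was far more abundant and gave nearly the same mean in both groups, at 1760.1 ± 168 and 1765 ± 122 TPM (log2 fold change 0.01, 95% interval -0.20 to 0.21, adjusted p = 0.966). Cofilin severs filaments. Cfl1, its non-muscle form, was at 1195 ± 86.0 and 1354 ± 111 TPM (log2 fold change 0.18, 95% interval -0.01 to 0.37, adjusted p = 0.141) and was called only under quantile normalization (lowest adjusted p = 0.0166). Cfl2, the muscle form, was at 258 ± 8.53 and 246 ± 12.7 TPM (log2 fold change -0.07, 95% interval -0.21 to 0.07, adjusted p = 0.416). The value of Cfl1 is uncertain, since other genes hold 22.6% of its 31-mers.

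Ezrin, radixin and moesin tie the actin cortex to the membrane. Msn, moesin, on chrX:96096042-96168552 (ENSMUSG00000031207), was at 379.6, 384 and 422 TPM without TGFB1 and 856, 698 and 661 TPM with it. The treated values were all at least 1.57 times the highest untreated one (log2 fold change 0.89, SE 0.10, adjusted p = 0.00186). Ezr, ezrin, the form typical of epithelia, was at 1127, 1048 and 1003 TPM without TGFB1 and 665, 886 and 916 TPM with it, and its groups were separate with TGFB1 replicate 1 the lowest. It was not called (log2 fold change -0.38, 95% interval -0.68 to -0.08, adjusted p = 0.0612), except without TGFB1 replicate 1 (-0.23, adjusted p = 0.0249). Rdx, radixin, was at 74.3 ± 0.577 and 74.8 ± 5.47 TPM (log2 fold change 0.01, 95% interval -0.15 to 0.17, adjusted p = 0.946). Of the summed TPM of the 3 genes Ezr held 71.3, 69.6 and 66.9% without TGFB1 and 41.5, 53.5 and 55.6% with it. Msn held 24.0, 25.5 and 28.1% and 53.4, 42.1 and 40.1%. Moesin exceeded ezrin in TGFB1 replicate 1, and ezrin exceeded moesin in the other 5 libraries.

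**Figure D3:**
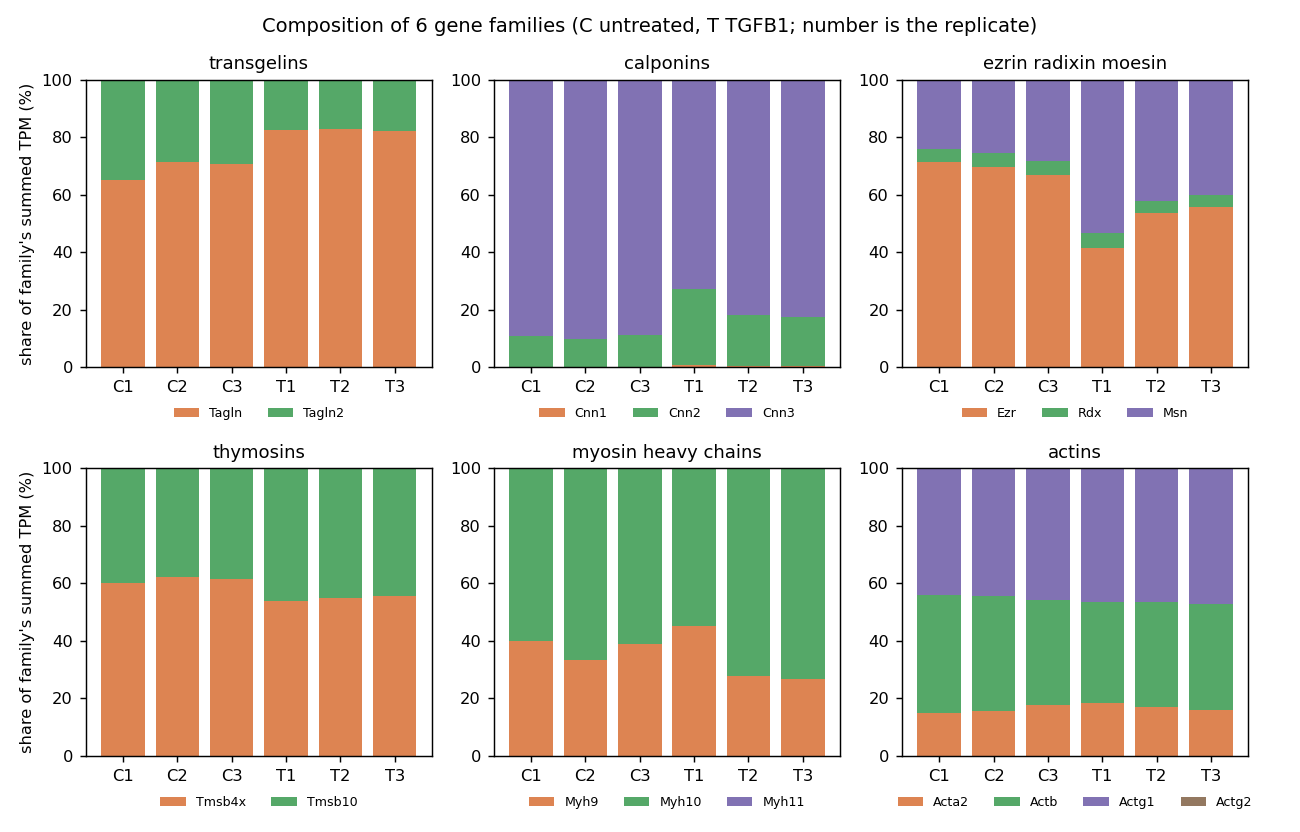
Share of each gene (y axis, percent of the family's summed TPM) in 6 gene families in each library (x axis, C untreated, T TGFB1, the number being the replicate). Tagln, Cnn2, Msn and Tmsb10 hold a larger share in all 3 treated libraries than in any untreated one, while the Acta2 and Myh10 shares overlap between groups.

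Formins build unbranched filaments and anillin scaffolds the contractile ring of dividing cells. Of these 3 genes 0 were called by limma, and 0 had an unadjusted p under 0.05. Diaph1, a formin, was at 23.3 ± 0.835 and 24.8 ± 0.358 TPM (log2 fold change 0.08, 95% interval -0.06 to 0.23, adjusted p = 0.35). Diaph3 was at 14.4 ± 3.23 and 15.2 ± 4.70 TPM, with a wide interval (log2 fold change 0.05, 95% interval -0.48 to 0.59, adjusted p = 0.877). Anln, anillin, was at 113, 81.6 and 113 TPM without TGFB1 and 83.5, 84.5 and 76.9 TPM with it. Control replicate 2 was low in Anln and lay among the treated values (log2 fold change -0.31, 95% interval -0.63 to 0.00, adjusted p = 0.119), and without it the gene was called lower (-0.47, adjusted p = 0.0121).

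Among 4 kinases that act on cofilin or myosin II, both LIM kinases rose, and Rock1 and Rock2 were not called. Limk2, a LIM kinase, which inactivates cofilin by phosphorylation, rose from 59.1, 57.7 and 56.7 to 74.9, 75.4 and 76.7 TPM with a narrow spread (log2 fold change 0.38, SE 0.052, adjusted p = 0.00315). Limk1, the other one, was lower in level and rose from 3.98, 3.35 and 3.58 to 5.68, 5.06 and 5.14 TPM (log2 fold change 0.44, SE 0.10, adjusted p = 0.0205). The Limk1 call was lost without TGFB1 replicate 2 or 3, without control replicate 2 or 3 (adjusted p up to 0.0720), also with no filter, and with a pseudocount of 5 the estimate was 0.25. Rock1 and Rock2 activate the LIM kinases and myosin II. Rock1 was at 43.4 ± 1.59 and 37.5 ± 4.26 TPM (log2 fold change -0.21, 95% interval -0.43 to 0.01, adjusted p = 0.13). Rock2 had the same mean in both groups to 3 digits, 38.4 ± 0.692 and 38.4 ± 1.21 TPM (log2 fold change 0.00, 95% interval -0.14 to 0.14, adjusted p = 1). The difference between the 2 kinase families was not tested.

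Srf, the transcription factor that binds CArG boxes, was at 45.6, 47.0 and 49.9 TPM without TGFB1 and 47.2, 45.7 and 45.6 TPM with it. The groups overlapped and Srf was not called (log2 fold change -0.04, 95% interval -0.18 to 0.10, adjusted p = 0.654). Mcam (CD146), a cell adhesion receptor of endothelium, pericytes and smooth muscle, on chr9:44134469-44142727 (ENSMUSG00000032135), had the largest fold of the members. It was at 25.4, 19.8 and 21.6 TPM without TGFB1 and 181, 105 and 93.8 TPM with it. The lowest treated value was 3.70 times the highest untreated one (log2 fold change 2.40, SE 0.24, adjusted p = 0.00114). Without TGFB1 replicate 1, the highest of the 3, the log2 fold change was 2.11 and the call was kept.

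The treated libraries did not differ from the controls to the same extent. TGFB1 replicate 1 lay furthest from the untreated mean in 16 of the 20 called genes. The exceptions were Myh10, Pfn2, Smtn and Limk2, in which replicate 3 lay furthest out. Over the 42 tested genes the root mean square log2 ratio to the untreated mean was 0.81 in TGFB1 replicate 1, 0.57 in replicate 2 and 0.54 in replicate 3, and 0.11 to 0.13 in the untreated libraries. Each treated library was thus further from the untreated mean than any untreated one. The untreated libraries are part of that mean, which draws them towards it.

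**Figure D4:**
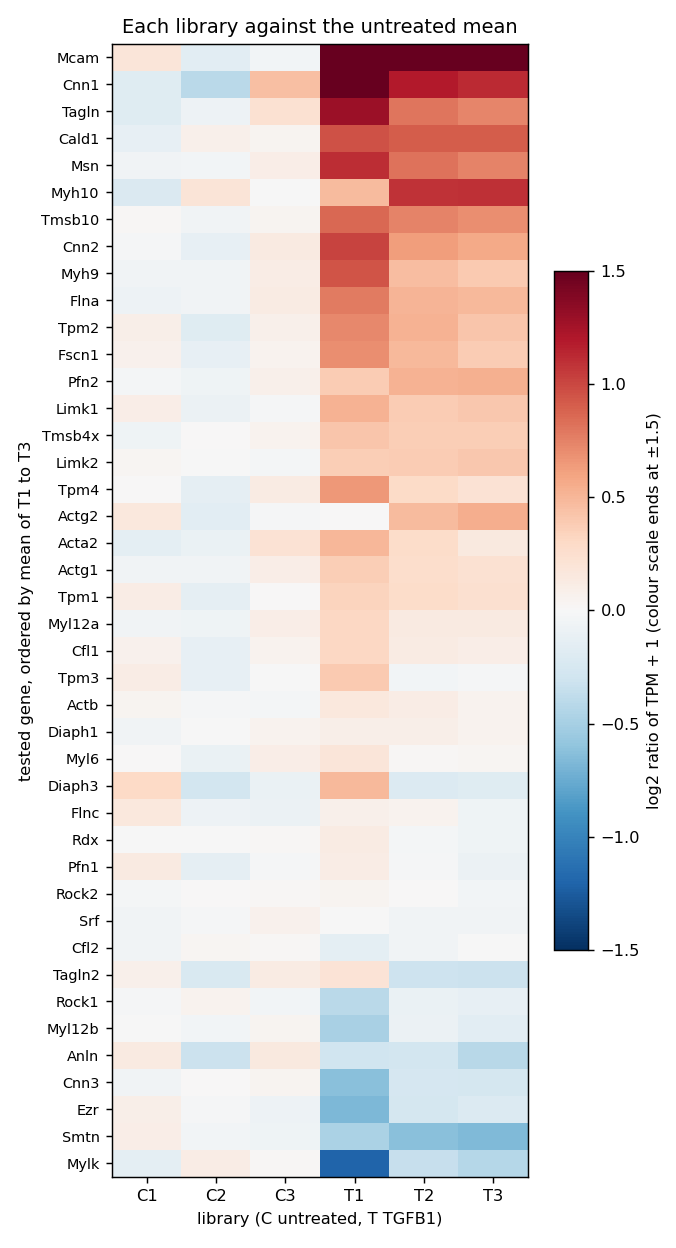
Log2 ratio of TPM + 1 to the untreated mean (colour, scale ends at 1.5 in either direction) of the 42 tested genes (y axis, ordered by the mean of the treated libraries) in each library (x axis, C untreated, T TGFB1). The column T1 is furthest from the untreated mean for 16 of the 20 called genes, among them Mcam, Cnn1 and Tagln, while Myh10 and Smtn are further from it in T2 and T3.

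The rest of the actin machinery was read from the same fit in lists of 160 further genes, of which 119 were tested. Of these 39 (32.8%) were called higher and 12 (10.1%) lower, against 15.8% and 14.6% of all tested genes. Their median log2 fold change was 0.15, and that of all tested genes 0.015. Without TGFB1 replicate 1 the counts were 41 and 12, and with control replicate 1, 2 or 3 left out 22, 24 and 25 were higher and 8, 8 and 6 lower. In each of these fits more genes were higher than lower. The counts of single lists below, markers included, stand beside the same shares of all tested genes, 15.8% higher and 14.6% lower. Each list is small, and no list was tested as a set.

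The list of stress fibre crosslinkers and adaptors had 11 of 16 genes higher and 2 lower. Synpo, synaptopodin, a partner of alpha actinin, rose from 56.0, 66.0 and 62.9 to 475, 364 and 343 TPM (log2 fold change 2.65, SE 0.13, adjusted p = 0.00012). Pdlim1, a PDZ and LIM adaptor of alpha actinin, rose from 108, 113 and 109 to 1083, 546 and 487 TPM (log2 fold change 2.58, SE 0.28, adjusted p = 0.00146). In both genes the lowest treated value was 5.19 and 4.32 times the highest untreated one, a wider gap than for any of the 45 members. Zyx, zyxin, a sensor of tension at focal adhesions, was at 226, 191 and 227 TPM without TGFB1 and 741, 409.8 and 376 TPM with it (log2 fold change 1.18, SE 0.25, adjusted p = 0.0137). Leaving out control replicate 2 ended that call (adjusted p = 0.0532).

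SRF needs cofactors to raise contractile genes. The list read here holds these cofactors together with other regulators and partners of SRF, and 4 of its 8 tested genes rose and 0 fell. Among the cofactors Mkl1, Mkl2 and Myocd only Mkl1 was called. Mkl1, which encodes the cofactor MRTF-A that is held back by actin monomers, was at 23.7, 24.7 and 24.96 TPM without TGFB1 and 40.2, 34.2 and 33.1 TPM with it, without overlap (log2 fold change 0.53, SE 0.086, adjusted p = 0.00572). Its paralog Mkl2 was at 7.54 ± 0.544 and 6.12 ± 0.969 TPM and was not called (log2 fold change -0.27, 95% interval -0.56 to 0.02, adjusted p = 0.142). Myocd, myocardin, the cofactor restricted to smooth and cardiac muscle, was near 0 in both groups (0.0282 and 0.0109 TPM). Elk3, a factor that binds beside SRF, rose from 30.0, 31.4 and 30.5 to 75.8, 57.0 and 58.3 TPM (log2 fold change 1.02, SE 0.11, adjusted p = 0.00157). Fhl2, a LIM protein that binds SRF, rose too (0.51, adjusted p = 0.0104). In a list of SRF target genes outside the members 6 of 12 tested genes rose and 1 fell. Fhl2 is in this list too and is counted again among the 6. Egr1, an immediate early gene, fell from 48.6, 21.4 and 28.3 to 7.95, 12.1 and 11.3 TPM (log2 fold change -1.499, SE 0.29, adjusted p = 0.011). Ankrd1, a muscle ankyrin repeat gene, rose from 6.42, 5.54 and 9.02 to 23.5, 14.6 and 13.9 TPM (log2 fold change 1.18, SE 0.23, adjusted p = 0.011). The immediate early gene Fosb was called higher (1.18, adjusted p = 0.0475) at a low level, 0.884, 0.255 and 0.259 TPM without TGFB1 and 4.60, 1.46 and 1.49 TPM with it. That call was lost without any 1 control, without TGFB1 replicate 2 or 3, with no filter, without the trend, with a pseudocount of 5 and under quantile normalization (adjusted p up to 0.136), and without TGFB1 replicate 1 the gene was under the filter.

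The Arp2/3 complex, which builds branched actin networks, moved in both directions, with 4 of its 9 listed subunits higher and 2 lower. Arpc2 fell from 818, 953 and 870.3 to 470.1, 603 and 601 TPM (log2 fold change -0.66, SE 0.11, adjusted p = 0.00637). Arpc5 rose from 232, 255 and 254 to 328, 309 and 324 TPM (log2 fold change 0.38, SE 0.060, adjusted p = 0.00533). Arpc5l was called lower (-0.31, adjusted p = 0.0192), which was lost without TGFB1 replicate 3 or control replicate 1 or 3 (adjusted p up to 0.0744). Of 11 capping and severing genes 2 were higher and 1 lower, which is not far from the 15.8% and 14.6% of all tested genes. Gsn, gelsolin, rose from 273, 318 and 284 to 386, 417 and 414 TPM (log2 fold change 0.48, SE 0.072, adjusted p = 0.00449). Dstn, destrin, a relative of cofilin, rose by less (0.32, adjusted p = 0.018), its call being lost without TGFB1 replicate 2 (adjusted p = 0.0513). The capping protein gene Capzb was called lower (-0.19, adjusted p = 0.0225), a call lost without any 1 of the libraries except TGFB1 replicate 1, under quantile normalization and after rescaling (adjusted p up to 0.0932). Of 9 other formins 4 rose and 0 fell, with Fmnl3 (0.50, adjusted p = 0.00426) and Daam1 (0.46, adjusted p = 0.00918) kept in the 15 alternatives run for them. Fmn1 (0.52, adjusted p = 0.0295) was lost without any 1 control, with no filter, without TGFB1 replicate 2 and under quantile normalization (adjusted p up to 0.0867).

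Among 8 tested cofilin regulators 1 was higher and 1 lower, which is not far from the 15.8% and 14.6% of all tested genes. Pak1, a kinase upstream of LIM kinase, rose from 17.6, 16.3 and 18.3 to 44.6, 31.2 and 30.4 TPM (log2 fold change 0.96, SE 0.15, adjusted p = 0.00466). Pdxp, a cofilin phosphatase, was called lower (-0.51, adjusted p = 0.0197). The Pdxp call was lost without any 1 control or TGFB1 replicate 2 (adjusted p up to 0.0668). Of 10 other myosins 2 rose and 3 fell, beside 15.8% and 14.6% of all tested genes. Myo1e rose (0.60, adjusted p = 0.00638), while Myo1d (-0.81, adjusted p = 0.00789) and Myo1c (-0.43, adjusted p = 0.00234) fell, all 3 being single-headed myosins of the membrane.

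Genes of cell division and of differentiated muscle were listed too. Of 13 cytokinesis genes 0 were called by limma and 1 had an unadjusted p under 0.05, and their summed abundance was 464.6 to 617 TPM without TGFB1 and 548 to 639.7 TPM with it. Only 3 of 15 other smooth muscle genes passed the filter, and 1 of the 3 was called. Synm, an intermediate filament gene, was called higher (0.46, adjusted p = 0.0386) at 1.17, 1.21 and 1.05 TPM without TGFB1 and 2.01, 1.79 and 2.02 TPM with it. That call was lost without any 1 of the 6 libraries, under quantile normalization and with a replicate block (adjusted p up to 0.120). Of 23 striated muscle contractile genes 5 passed the filter and 1 was called. Tnnt2, cardiac troponin T, was called higher at 1.24, 1.14 and 0.615 TPM without TGFB1 and 7.24, 2.98 and 2.89 TPM with it (log2 fold change 1.35, SE 0.31, adjusted p = 0.0198). The Tnnt2 call was lost with no filter and when any 1 control was left out (adjusted p up to 0.0719).

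Marker lists of the cell types such a culture could hold were read beside these results. Of 12 markers of ovarian surface epithelium 8 were tested and 5 fell, Krt7 (337 to 149 TPM), Krt18 (200.4 to 112 TPM), Upk3b, Upk1b and Gpm6a. Among all tested genes 14.6% were called lower. The 12 markers summed to 2099 to 2205 TPM without TGFB1 and 1022 to 1390 TPM with it, lowest in TGFB1 replicate 1. Wt1 (181 and 144 TPM), Msln and Gata4 were not called, and Krt8, Lgr5 and Aldh1a2 were at or near 0 in both groups. The 8 markers of smooth muscle and pericytes summed to 0.779 to 1.06 TPM without TGFB1 and 1.63 to 3.32 TPM with it. Of these only Des passed the filter (0.840 and 2.18 TPM, not called), Kcnj8 was at 0 in all libraries and Rgs5, Notch3, Itga8 and Myocd were near 0. Cspg4, under the filter, was at 0.0261, 0 and 0.0364 TPM without TGFB1 and 0.437, 0.102 and 0.0609 TPM with it, all treated values being higher. In Myocd all treated values were lower (means of 0.0282 and 0.0109 TPM). The 7 endothelial markers summed to 1.25 to 1.36 TPM and 1.87 to 2.07 TPM, mostly Pecam1. Under the filter, the groups were separate in Cdh5, which was higher with TGFB1 (means of 0.0433 and 0.258 TPM). They were also separate in Vwf, which was lower with it (0.101 and 0.0386 TPM). Apart from Des and Pecam1, the markers of these other cell types, which also express Mcam, were under 1 TPM in the means of both groups.

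Among fibroblast and stroma markers 1 of 4 tested genes rose, the collagen gene Col1a1 (6.74 to 161 TPM), and 1 fell, the proteoglycan gene Dcn (1362 to 616 TPM). Pdgfra was at 6.34 and 7.65 TPM and not called. Col3a1, the other tested marker, was not called either, and 3 of the 4 had an unadjusted limma p under 0.05. The 6 markers summed to 1657 to 1813 TPM without TGFB1 and 1183 to 1245 TPM with it. Pdgfrb, a receptor gene of stromal and mural cells, was under the filter, at 0.0120, 0.0103 and 0 TPM without TGFB1 and 1.05, 0.199 and 0.191 TPM with it, every treated value being above the untreated ones and TGFB1 replicate 1 the highest. Lum was under the filter in both groups (0.261 and 0.0440 TPM). Of 7 granulosa markers 3 were tested, Foxl2 being called higher (18.5 to 22.7 TPM), Inha lower (16.9 to 9.83 TPM) and Inhba not called. Fshr was at 0. Of 5 theca and steroidogenic markers 2 were tested. Star fell (299.6 to 143 TPM), Insl3 was not called, and Lhcgr was at 0. Of 7 leukocyte markers only Cd68, a lysosomal gene, passed the filter, and it fell (22.7 to 8.79 TPM), while Ptprc, Adgre1 and Cd3e were near 0. The part of these changes in the actomyosin results was not tested.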

How the data were processed

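Poly(A) RNA-seq values of 6 libraries, 3 untreated and 3 given TGFB1, were used as deposited, 1 column per library. The authors deposited a signal on the TPM scale, corrected for transcript length. They are not plain TPM, since column totals differ, and the depth is unknown, so precision rests on the spread of 3 replicates. Per the submitters' processing notes the build was GRCm38 and the tools were sleuth 0.30.0 and kallisto 0.44.0, with no roles given. Not given in the sources used here are the annotation, the use of strand and the summing to genes.

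Groups and replicate numbers came from the labels, and columns were tied to samples by group and number. The column names carry an unexplained prefix, Mono. Values were transformed as log2(TPM + 1), rows with a mean of at least 1 TPM were kept, and limma 3.58.1 in R 4.3.3 (lmFit, eBayes with trend) was fitted to all 12257 of them, two-sided, with Benjamini-Hochberg adjustment over all of them. Fold changes on this scale understate those of low genes. The steps were tested on simulated data. Where a symbol had several rows, the one with the highest mean was used.

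Coordinates are those of GENCODE M21 on GRCm38. The share of each gene's 31-mers found in other M21 genes was computed with Python 3.11.15, and members at 20% or more are marked as uncertain. Promoter windows are RefSeq's. The members and gene lists were chosen with earlier results of these data known. Any member may be named. Outside them, up to 3 called genes with the largest change in each list were named, with the tested markers, other markers near 0 and Mkl1, Mkl2, Myocd and Myh14. Alternatives changed the pseudocount, filter, scaling, trend and replicate block or left out each library, and 2 were added after seeing the data. One of the gene lists is counted in the totals of the other lists and is not reported here on its own.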

Additional observations from a re-analysis of the deposited data

How the results depend on the processing

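The 17 alternatives kept the direction of the 20 called members wherever they gave a value (Cnn1 and Limk1 were under the filter of 5 TPM), and 13 of them were called in each. The other 7 (Actg1, Cnn1, Cnn3, Tpm1, Myh9, Myh10 and Limk1) were lost in at least 1, and 9 uncalled members were called in at least 1. Without the trend, with no filter, under quantile normalization and after rescaling 1 member was lower, since Cnn3 was lost. The members higher numbered 23 under quantile normalization, 21 after rescaling and 15 with no filter. Leaving out each library gave 13 to 19 members higher and 1 to 4 lower, and 22 to 41 genes of the other lists higher and 6 to 12 lower. The cause was not tested, though these fits hold fewer samples. The 62.8% of calls that were upward after rescaling are 2393 of 3812. The ratio of the members' summed TPM, 1.24, ran from 1.22 to 1.32. Chosen after seeing the data, removing repeated rows changed no member's call, and adding the rows of genes that share 31-mers to 9 members moved a log2 fold change by at most 0.0059. Tagln was not among these members, since Gm48529 has no row, and neither was Myl12b. The largest partners of Cnn3 and Myl12a have no row either, so the effect of these partners was not tested. In their deviations from the group means, same-numbered libraries correlated at 0.198, 0.153 and -0.038. Differently numbered ones correlated at -0.227 to 0.184. With 3 libraries per group these values cannot settle whether the numbers pair the libraries. With a replicate block 18 members were higher and 3 lower, Mylk being added (adjusted p = 0.0253), and 36 genes of the other lists were higher and 13 lower, the call of Synm being lost (adjusted p = 0.0731). With no read counts, how far depth limits the low genes Cnn1, Actg2, Myl9, Lmod1 and Myh11 could not be measured.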
